A study of Homo sapiens with 16 samples.

Results

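The genes described here make, break down, bind and sense hyaluronan in HMC3 cells treated with ketamine, its metabolites and estradiol. They were taken by name as 10 of the 25370 genes in the count table: the synthases HAS1, HAS2 and HAS3, the hyaluronidases HYAL1, HYAL2 and HYAL3, the receptors CD44 and HMMR, the precursor enzyme UGDH, and the hyaluronan-binding protein TNFAIP6. The list was made after the level of HAS2 was seen to be low under ketamine and 2R6R-HNK. The list was thus selected on the measured values of HAS2, and in every comparison that uses vehicle, ketamine-alone or 2R6R-HNK-alone libraries HAS2 is given as a description with no test. The 9 other members were added by name, as genes of the same pathway. Of the 10 genes, 8 passed edgeR's filter on low counts; HAS1 and TNFAIP6 did not, and 7 members other than HAS2 were tested.

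Hyaluronan is a long unbranched polysaccharide of alternating glucuronic acid and N-acetylglucosamine, made at the plasma membrane by the HAS enzymes from UDP-sugars in the cytosol and extruded into the space around the cell. Hyaluronidases cut it, and the products differ in size. CD44 is the main surface receptor for hyaluronan, and HMMR (RHAMM) is a second hyaluronan-binding protein that also works at the mitotic spindle. In the nervous system hyaluronan forms the backbone of the extracellular matrix and of perineuronal nets, and its fragments are known to activate microglia and macrophages.

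The cells were HMC3, a human cell line labelled as microglial, and 2 RNA-seq libraries were made for each of 8 groups. The groups were vehicle, 0.1 nM estradiol (E2), 400 nM ketamine, 400 nM 2R6R-HNK, 400 nM 2S6S-HNK, and each of the 3 compounds at 400 nM together with 0.1 nM E2. HNK stands for hydroxynorketamine, and the 2R6R and 2S6S forms are mirror images of each other. All cells had been kept in charcoal-stripped serum and then without serum before 24 h of treatment. The sources do not say that the 2 libraries of a group came from separate cultures, so the p-values measure the spread between these libraries, which may be technical, in 1 cell line.

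The libraries held 55300614 to 81646165 counts, so that 3 counts, taken as the limit of detection, were 0.0542 CPM (counts scaled to the total of the library) in the smallest. Libraries of a group differed by 2.6 to 3.86 times the variance of random sampling of reads. An even number was found in 65.8% of the counts from 1 to 9 but in 49.9% of those of 500 or more. The study's methods describe the counts as those of read pairs. The reason for the excess of even low counts is not known and was not tested, and counts were used as deposited. Of 12 markers of microglia and macrophages, 9 (PTPRC, ITGAM, AIF1, CX3CR1, P2RY12, TMEM119, SPI1, C1QA and TYROBP) never exceeded 7 counts in a library, and CSF1R, TREM2 and CD68 averaged 0.728, 0.723 and 20.5 CPM. Of 8 fibroblast markers, FN1, COL1A1, THY1, PDGFRB and COL1A2 averaged 14739, 4548, 428, 264 and 191 CPM, while COL3A1, LUM and DCN never exceeded 12 counts in a library. The difference between treated and vehicle libraries also followed the exon GC content of the gene. Across the 15358 tested genes with a known GC content, its Spearman correlation with the log2 fold change against vehicle was 0.754 for E2, 0.643 for ketamine, 0.75 for 2R6R-HNK, 0.651 for 2S6S-HNK, 0.77 for E2+ketamine, 0.662 for E2+2R6R-HNK and 0.444 for E2+2S6S-HNK. The same 2 vehicle libraries enter all 7 of these comparisons. A correction for GC content and exon length was therefore run on every comparison, and its main changes of direction or call are given below beside the genes they touch.

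On the scale of CPM per kilobase of exon, which allows genes to be compared with each other, CD44 was the most abundant member in vehicle cells at 26.8. UGDH followed at 16.2, HMMR at 12.7, HYAL2 at 10.3 and HAS3 at 6.44. HAS2 stood at 2.28, HYAL3 at 1.90 and HYAL1 at 0.131, while HAS1 and TNFAIP6 had no counts in either vehicle library. HAS3 was thus the most abundant of the 3 synthases in untreated cells, and HYAL2 of the 3 hyaluronidases.

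HAS2 (chr8:122624356-122653680, minus strand, GRCh37) makes very long hyaluronan chains. It was measured at 9.37 and 9.95 CPM in the vehicle libraries and at 4.47 and 4.38 CPM with E2. With ketamine it stood at 3.30 and 3.42 CPM, with 2R6R-HNK at 3.54 and 3.48 and with 2S6S-HNK at 5.91 and 5.65. In the presence of E2 the values were 3.95 and 3.12 CPM with ketamine, 6.36 and 6.00 with 2R6R-HNK and 7.52 and 7.62 with 2S6S-HNK. Both vehicle libraries lay above all 14 treated ones, and the lowest library was E2+ketamine replicate 2. In order of the mean, vehicle came first at 9.66 ± 0.415 CPM (SD, n = 2), then E2+2S6S-HNK at 7.57 ± 0.0703, E2+2R6R-HNK at 6.18 ± 0.250, 2S6S-HNK at 5.78 ± 0.187 and E2 at 4.42 ± 0.0669. E2+ketamine at 3.54 ± 0.587, 2R6R-HNK at 3.51 ± 0.0404 and ketamine at 3.36 ± 0.0826 closed the order. The libraries of E2+ketamine lay on both sides of those of the last 2 groups. As a description, ketamine stood at -0.06 relative to 2R6R-HNK on the log2 scale. Each library held between 183 and 613 counts of HAS2.

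As a description, the log2 fold change of HAS2 against vehicle was -1.52 with ketamine, -1.46 with 2R6R-HNK, -1.45 with E2+ketamine and -1.13 with E2. It was -0.74 with 2S6S-HNK, -0.64 with E2+2R6R-HNK and -0.35 with E2+2S6S-HNK. Between the mirror-image metabolites given alone, HAS2 with 2R6R-HNK stood at -0.72 relative to 2S6S-HNK on the log2 scale, again as a description. The exons of HAS2 have a GC content of 37.2%, against a median of 48.7% over the genes tested. After the correction for GC content and length the values against vehicle were -1.05 with ketamine, -0.84 with 2R6R-HNK, -0.70 with E2+ketamine and -0.57 with E2. With 2S6S-HNK the corrected value of HAS2 was -0.16, with E2+2S6S-HNK -0.05, and with E2+2R6R-HNK it was 0.01, which is a change of sign.

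HAS3 (chr16:69139556-69152622, plus strand), which makes shorter chains, lay in a narrow range. Its levels were 33.7 and 33.3 CPM with vehicle, 40.0 and 39.9 with E2, 30.5 and 32.2 with ketamine, 30.8 and 33.6 with 2R6R-HNK and 34.5 and 34.3 with 2S6S-HNK. In the presence of E2 they were 33.2 and 32.7 with ketamine, 32.8 and 33.4 with 2R6R-HNK and 29.4 and 30.0 with 2S6S-HNK. The E2 libraries were the highest of all and those of E2+2S6S-HNK the lowest. HAS3 rose with E2 (log2 fold change 0.25 ± 0.05 SE, edgeR adjusted p = 1.91e-05) and fell with E2+2S6S-HNK (-0.17 ± 0.05, edgeR adjusted p = 0.00300), and did not pass the test in the other 5 comparisons with vehicle, where its values lay between -0.09 and 0.04. HAS3 lost its fall with E2+2S6S-HNK under upper-quartile normalization (-0.07, edgeR adjusted p = 0.257) and when only the compared groups were fitted (-0.10, edgeR adjusted p = 0.102). After the correction for GC content, 54.5% in HAS3, its value with E2 was 0.00, and HAS3 was called lower in the 6 other comparisons, at -0.28 to -0.43.

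HAS1, the third synthase, had 27 counts over the 16 libraries, of which 10 (0.12 CPM) were in ketamine replicate 2, and its count was even in 15 of 16 libraries. It was not tested. TNFAIP6 (TSG-6), a secreted protein that transfers heavy chains onto hyaluronan, was listed at 0 in all 16 libraries, which allows a level of up to 0.0542 CPM in the smallest library.

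UGDH (chr4:39500375-39529931, minus strand) oxidizes UDP-glucose to UDP-glucuronate, 1 of the 2 sugar substrates of the synthases. It stood at 66.2 and 64.5 CPM with vehicle, 49.1 and 47.1 with E2, 49.8 and 52.0 with ketamine, 46.9 and 46.8 with 2R6R-HNK and 45.1 and 44.7 with 2S6S-HNK. With E2 present it stood at 38.9 and 38.6 with ketamine, 41.3 and 42.8 with 2R6R-HNK and 52.1 and 51.5 with 2S6S-HNK. Every treated library was below both vehicle libraries, and the E2+ketamine libraries were the lowest. UGDH fell in all 7 comparisons with vehicle, by 0.34 on the log2 scale with E2+2S6S-HNK (edgeR adjusted p = 1.11e-09) to 0.76 with E2+ketamine (edgeR adjusted p = 2.3e-21). All 7 calls held after the correction for GC content (44.8% in UGDH), with values between -0.39 and -0.20. Exons of UGDH and of the antisense gene UGDH-AS1 share 513 bases on opposite strands. HAS2 shares 251 exonic bases with HAS2-AS1, HAS3 365 with CHTF8 and HMMR 113 with HMMR-AS1 in the same way. Whether the counting used the strand is not given in the sources used here, so reads of these pairs may not be told apart.

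**Figure D1:**
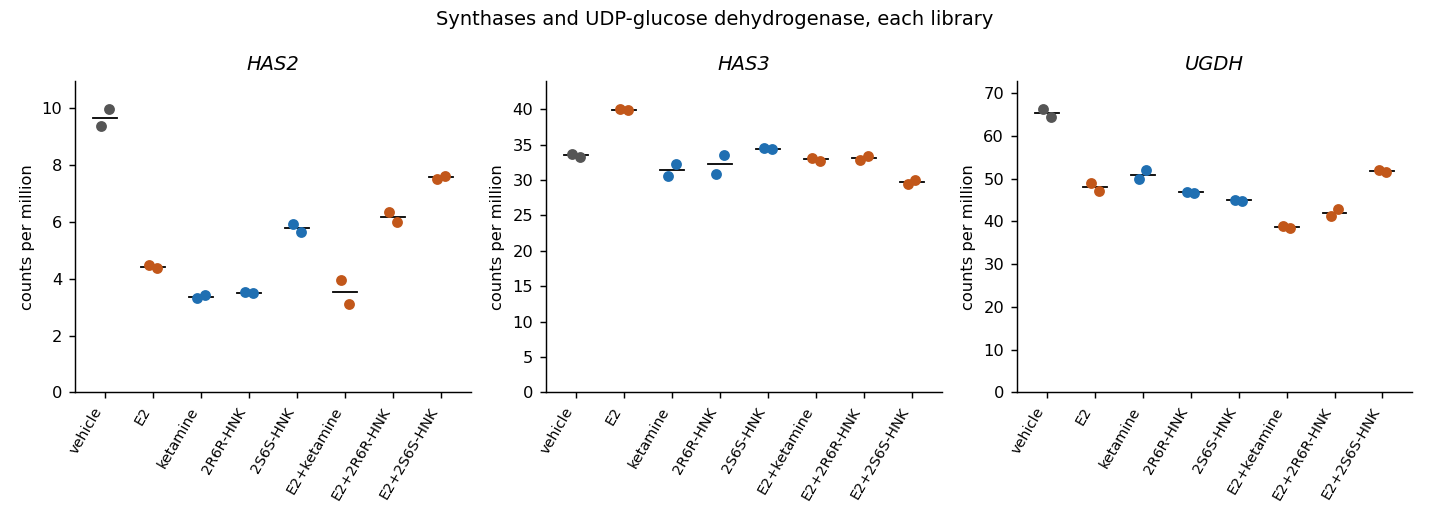
CPM of HAS2, HAS3 and UGDH in each of the 16 libraries by group, with each point a library and each bar the mean of 2. For HAS2 and UGDH both vehicle libraries lie above every treated library, while for HAS3 the E2 libraries are the highest.

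Of the receptors, HMMR (chr5:162887209-162918947, plus strand) fell most. It was measured at 49.2 and 50.9 CPM with vehicle, 26.8 and 28.1 with E2, 21.7 and 20.7 with ketamine, 29.1 and 30.0 with 2R6R-HNK and 25.1 and 22.8 with 2S6S-HNK. With E2 present the levels were 24.1 and 23.9 with ketamine, 19.96 and 20.2 with 2R6R-HNK and 23.4 and 26.4 with 2S6S-HNK. The lower vehicle library was above the highest treated one (30.0 CPM, with 2R6R-HNK). HMMR fell in all 7 comparisons with vehicle, the least with 2R6R-HNK (log2 fold change -0.76 ± 0.06 SE, edgeR adjusted p = 3.17e-17) and the most with E2+2R6R-HNK (-1.32 ± 0.06, edgeR adjusted p = 4.62e-26). The fall was 0.87 with E2, 1.24 with ketamine, 1.06 with 2S6S-HNK, 1.06 with E2+ketamine and 1.01 with E2+2S6S-HNK. All 7 calls of HMMR, whose exons have a GC content of 37.6%, held after the correction for GC content and length, at smaller sizes: -0.77 with ketamine, -0.71 with E2+2S6S-HNK, -0.68 with E2+2R6R-HNK, -0.49 with 2S6S-HNK, -0.32 with E2, -0.33 with E2+ketamine and -0.15 with 2R6R-HNK (edgeR adjusted p = 0.0113).

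CD44 (chr11:35160429-35253949, plus strand) was measured at 266 and 269 CPM with vehicle, 219 and 214 with E2, 211 and 205 with ketamine, 198 and 198 with 2R6R-HNK and 200 and 201 with 2S6S-HNK. With E2 present it stood at 217 and 213 with ketamine, 184 and 192 with 2R6R-HNK and 177 and 178 with 2S6S-HNK. Vehicle was again above every treated library. CD44 fell in all 7 comparisons, by 0.30 with E2 (edgeR adjusted p = 5.76e-14) to 0.59 with E2+2S6S-HNK (edgeR adjusted p = 2.05e-24), none of them 2-fold. After the correction for GC content, 42.3% in CD44, the direction did not hold throughout. CD44 stayed lower with E2+2S6S-HNK (-0.37), ketamine (-0.11) and E2+2R6R-HNK (-0.11), was not called with 2S6S-HNK (-0.01) or 2R6R-HNK (0.03), and was higher with E2 (0.06) and E2+ketamine (0.26, edgeR adjusted p = 7.85e-16).

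The promoters of both receptors are shown because HMMR is also a gene of dividing cells, and promoters of such genes are known to share CCAAT boxes and the cell-cycle element called CHR. The 250 bases before the RefSeq transcription start (GRCh38.p14, plus strand) are printed 5′ to 3′ with matches to CCAAT, to the CHR letters TTTGAA and to the GC box GGGCGG in capitals, each searched on both strands.
HMMR, chr5:163460382-163460631: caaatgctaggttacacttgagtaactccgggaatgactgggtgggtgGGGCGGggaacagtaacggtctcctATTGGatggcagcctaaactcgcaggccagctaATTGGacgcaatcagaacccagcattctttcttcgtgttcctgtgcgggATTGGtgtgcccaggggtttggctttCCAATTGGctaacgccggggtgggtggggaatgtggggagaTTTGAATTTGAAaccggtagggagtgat
CD44, chr11:35138921-35139170: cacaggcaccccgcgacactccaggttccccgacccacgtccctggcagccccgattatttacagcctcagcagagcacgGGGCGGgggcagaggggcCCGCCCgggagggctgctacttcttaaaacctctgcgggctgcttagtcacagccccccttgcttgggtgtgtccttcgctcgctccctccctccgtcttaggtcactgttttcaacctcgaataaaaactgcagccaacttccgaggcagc
The HMMR window held 5 matches to CCAAT, 2 adjacent matches to TTTGAA and 1 to GGGCGG, with 2 of the CCAAT matches, on opposite strands, overlapping. The CD44 window held 2 matches to GGGCGG and none to CCAAT or TTTGAA. The background shares come from 27305 longer promoter windows of 300 bases, with 250 before the start and 50 after it. Of these windows, 35.7% held CCAAT, 15.4% held TTTGAA and 44.6% held GGGCGG. These are matches of letters, and binding of a factor was not measured.

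Of the hyaluronidases, HYAL2 (chr3:50355221-50360213, minus strand), a membrane-anchored enzyme that cuts long hyaluronan into intermediate fragments, was the most abundant. It stood at 46.2 and 45.0 CPM with vehicle, 61.9 and 62.5 with E2, 51.7 and 54.5 with ketamine, 69.6 and 69.0 with 2R6R-HNK and 66.0 and 72.1 with 2S6S-HNK. With E2 present it stood at 76.5 and 80.2 with ketamine, 67.6 and 68.4 with 2R6R-HNK and 57.5 and 51.4 with 2S6S-HNK. Both vehicle libraries were below all treated ones, and E2+ketamine was the highest. HYAL2 rose in all 7 comparisons with vehicle, from 0.22 with ketamine (edgeR adjusted p = 4.16e-05) to 0.78 with E2+ketamine (edgeR adjusted p = 4.14e-21) on the log2 scale. HYAL2 is a GC-rich gene (62.3% in its exons), and none of these rises held after the correction: the corrected values lay between -0.15 and 0.09, and the only one called was a fall with ketamine (edgeR adjusted p = 9.12e-04). HYAL2 also shares 509 exonic bases with TUSC2 on the same strand.

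HYAL3 (chr3:50330262-50336836, minus strand), a hyaluronidase whose own activity is less settled, was measured at 3.55 and 3.93 CPM with vehicle, 5.74 and 6.50 with E2, 5.41 and 4.75 with ketamine, 6.65 and 6.09 with 2R6R-HNK and 5.20 and 5.80 with 2S6S-HNK. With E2 present it stood at 5.62 and 6.33 with ketamine, 5.20 and 4.40 with 2R6R-HNK and 3.94 and 4.32 with 2S6S-HNK. All treated libraries were above the vehicle ones. HYAL3 rose in 6 of 7 comparisons, from 0.36 with E2+2R6R-HNK to 0.77 with 2R6R-HNK (edgeR adjusted p = 2.05e-07), and its value with E2+2S6S-HNK was 0.14 (edgeR adjusted p = 0.350). The call with E2+2R6R-HNK was lost without vehicle replicate 1 (0.29) and without E2+2R6R-HNK replicate 1 (0.23). After the correction for GC content, 60.7% in HYAL3, only its rise with E2 was called (0.34, edgeR adjusted p = 0.0239). HYAL3 overlaps IFRD2 by 43 exonic bases and NAA80 by 232 on the same strand.

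HYAL1, the lysosomal hyaluronidase, was read at only 17 to 60 counts per library, or 0.523 and 0.285 CPM with vehicle and 0.765 and 0.824 CPM with E2+2R6R-HNK, its highest group. The 2 vehicle libraries spanned those of E2. HYAL1 passed the test against vehicle with E2+2R6R-HNK alone (0.97 ± 0.37 SE, edgeR adjusted p = 0.0187). That call was lost without vehicle replicate 2 (0.60), without E2+2R6R-HNK replicate 2 (0.91) and after the correction for GC content (0.53, edgeR adjusted p = 0.226). The other 6 values of HYAL1 against vehicle lay between -0.15 and 0.64.

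**Figure D2:**
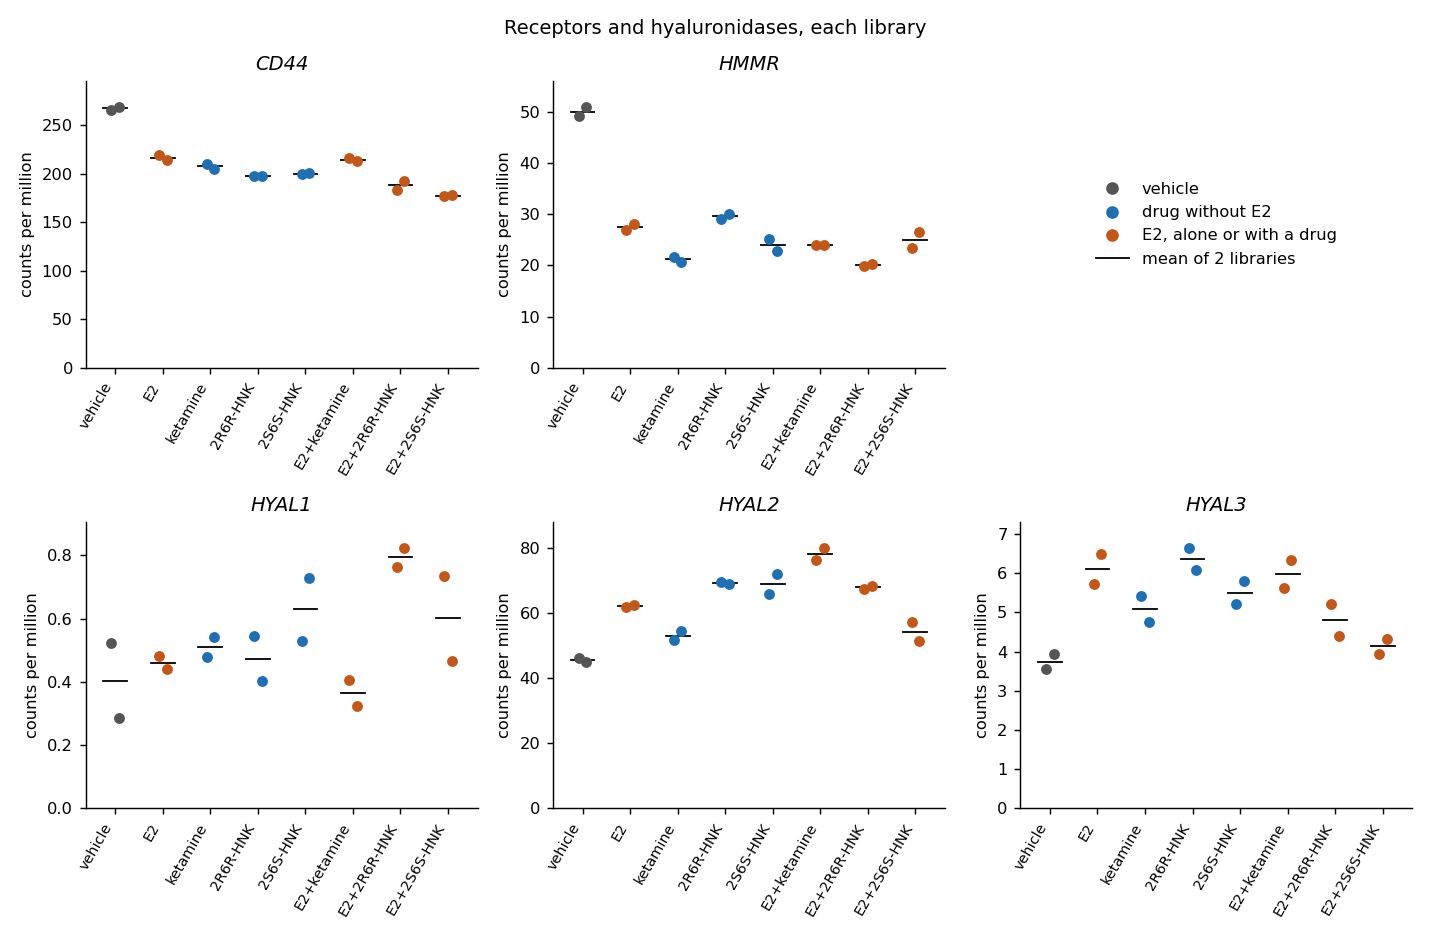
CPM of CD44, HMMR, HYAL1, HYAL2 and HYAL3 in each of the 16 libraries by group, with each point a library and each bar the mean of 2. Vehicle lies above every treated library for CD44 and HMMR and below every one for HYAL2 and HYAL3. For HYAL1 the libraries of 2S6S-HNK and E2+2R6R-HNK lie above vehicle, and those of the other treatments overlap it.

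Counted together, 6 of the 7 tested members other than HAS2 differed from vehicle with E2, where 62.5% of all tested genes were called at an adjusted p under 0.05. The count was 5 with ketamine (59.3% of all genes), 5 with 2R6R-HNK (66.6%), 5 with 2S6S-HNK (67.9%), 5 with E2+ketamine (71.7%), 6 with E2+2R6R-HNK (69.7%) and 5 with E2+2S6S-HNK (59.7%). These shares are near those of all genes, so the counts set the members apart from no background. The direction was mixed in every treatment, with UGDH, CD44 and HMMR lower and HYAL2 higher in all 7. A log2 fold change of at least 1 was reached by HMMR alone, with ketamine (3.56% of all genes), 2S6S-HNK (9.08%), E2+ketamine (11%), E2+2R6R-HNK (11.5%) and E2+2S6S-HNK (5.85%), and by none of the 7 with E2 (1.81%) or 2R6R-HNK (3.75%). The calls that held in all 7 comparisons after the correction for GC content and length were those of HMMR and UGDH.

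**Figure D3:**
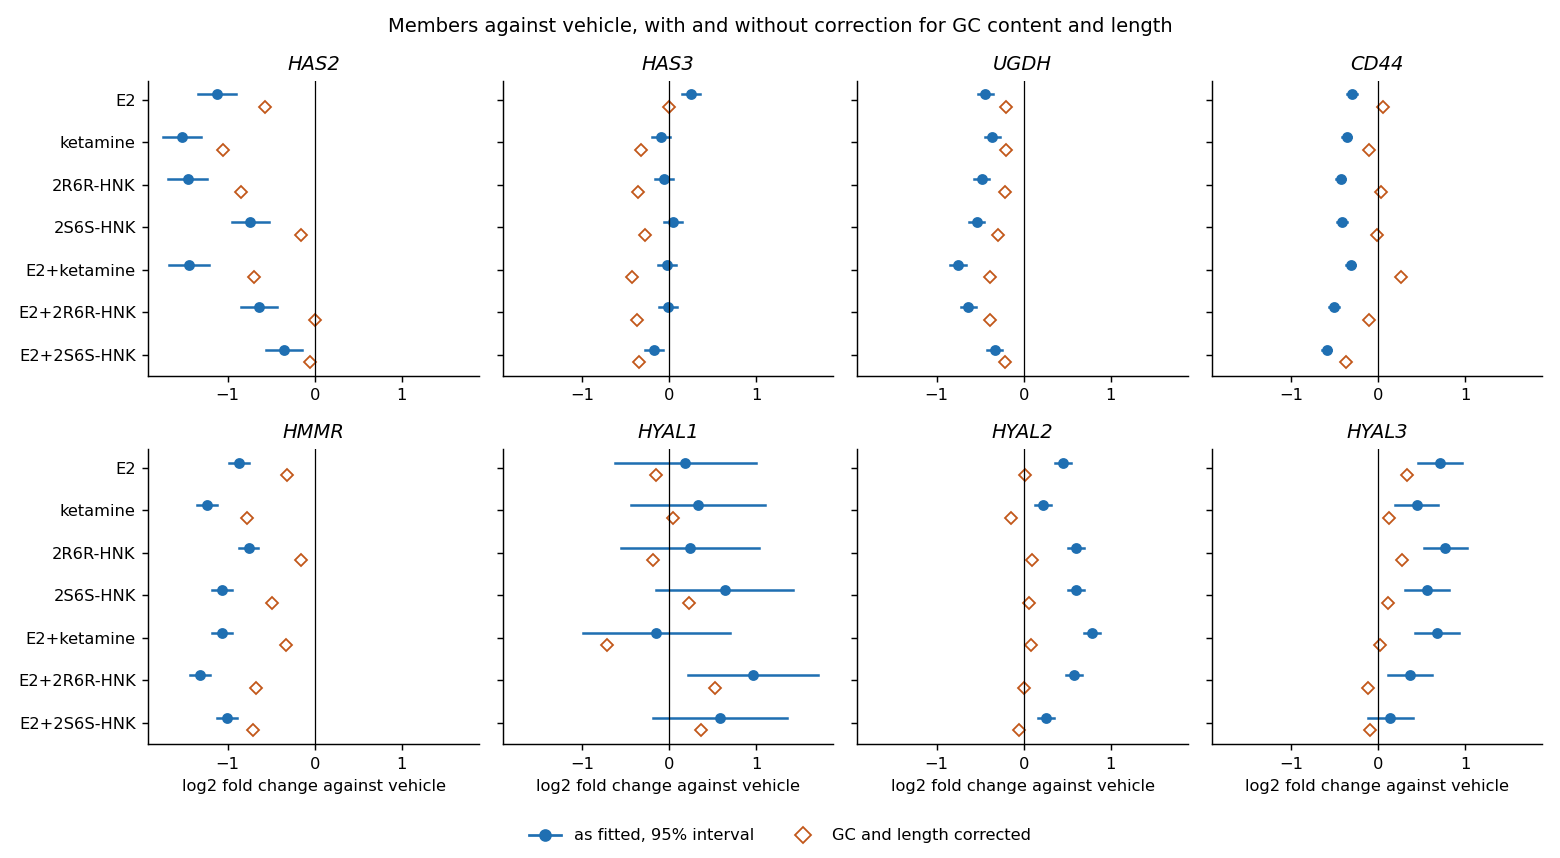
Log2 fold change against vehicle of the 8 members that passed the filter, as fitted with its 95% interval (filled circles) and after correction for GC content and length (open diamonds). HAS2 is shown as a description, since the list was selected on its values, and its intervals are not a test. The corrected values of HMMR and UGDH stay below 0 in all 7 treatments, while those of HYAL2 gather around 0.

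Each compound was next compared with E2 alone at the same dose of E2, which uses neither the vehicle libraries nor those of ketamine or 2R6R-HNK alone and so allows HAS2 to be tested. HAS2 rose with 2S6S-HNK (log2 fold change 0.77 ± 0.11 SE, edgeR adjusted p = 3.55e-08) and with 2R6R-HNK (0.48 ± 0.11, edgeR adjusted p = 0.000279). It fell with ketamine (-0.32 ± 0.12, edgeR adjusted p = 0.0248). Both libraries of each metabolite group lay above both of E2 alone, and both of E2+ketamine below them. The 2 rises held after the correction for GC content, at 0.58 with 2R6R-HNK and 0.52 with 2S6S-HNK. The fall of HAS2 with ketamine did not: its adjusted p was 0.466 in edgeR after the correction (-0.13), 0.0712 in DESeq2 (-0.30) and 0.0574 in edgeR on the compared groups alone (-0.32). It was also lost without E2 replicate 1 (-0.31), without E2 replicate 2 (-0.33) and without E2+ketamine replicate 2 (-0.16).

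In the same comparisons HAS3 fell with all 3 compounds, by 0.28 with ketamine, 0.27 with 2R6R-HNK and 0.43 with 2S6S-HNK (edgeR adjusted p = 3.28e-10). These 3 falls of HAS3 held after the correction for GC content, at -0.43, -0.37 and -0.34. UGDH fell with ketamine (-0.31 ± 0.04) and 2R6R-HNK (-0.19 ± 0.04) and rose slightly with 2S6S-HNK (0.11 ± 0.04, edgeR adjusted p = 0.0303). The call of this rise was lost without E2 replicate 2 (0.08), without E2+2S6S-HNK replicate 1 (0.10) or replicate 2 (0.12), in DESeq2 (adjusted p = 0.0777) and after the correction for GC content (-0.01). CD44 fell with 2R6R-HNK (-0.21 ± 0.03) and 2S6S-HNK (-0.29 ± 0.03), and its value with ketamine was -0.01 (95% interval -0.07 to 0.04). HMMR fell further with ketamine (-0.19 ± 0.06), 2R6R-HNK (-0.45 ± 0.06) and 2S6S-HNK (-0.14 ± 0.06). The HMMR call with 2S6S-HNK was lost without E2 replicate 2 (-0.11) or E2+2S6S-HNK replicate 1 (-0.05) and under upper-quartile normalization (-0.10). This result changed in 3 of the 8 settings other than leaving out a library, and the fall was larger after the correction. The HMMR call with ketamine was lost without E2 replicate 2 (-0.16) and after the correction (0.00 for HMMR). After the correction CD44 was called higher with E2+ketamine than with E2 (0.20), while its falls with both metabolites held.

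HYAL2 rose with E2+ketamine over E2 (0.33 ± 0.04) and with E2+2R6R-HNK (0.13 ± 0.04) and fell with E2+2S6S-HNK (-0.19 ± 0.04). Of these HYAL2 calls, that with 2R6R-HNK was lost without E2 replicate 1 (0.12), without E2+2R6R-HNK replicate 2 (0.12) and after the correction (-0.01), and that with 2S6S-HNK without E2+2S6S-HNK replicate 2 (-0.11). HYAL3 fell with 2R6R-HNK (-0.35 ± 0.12) and 2S6S-HNK (-0.57 ± 0.12), the former call being lost without E2 replicate 2 (-0.25) or E2+2R6R-HNK replicate 2 (-0.23). After the correction no HYAL2 change over E2 was called, with values of -0.07 to 0.07, while both HYAL3 falls were. In all, 4 of the 7 members other than HAS2 were called with ketamine on the E2 background (50.3% of all genes), 6 with 2R6R-HNK (50.5%) and 6 with 2S6S-HNK (55.1%). The Spearman correlation of these changes with GC content across genes was 0.533 for ketamine, 0.201 for 2R6R-HNK and -0.35 for 2S6S-HNK.

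**Figure D4:**
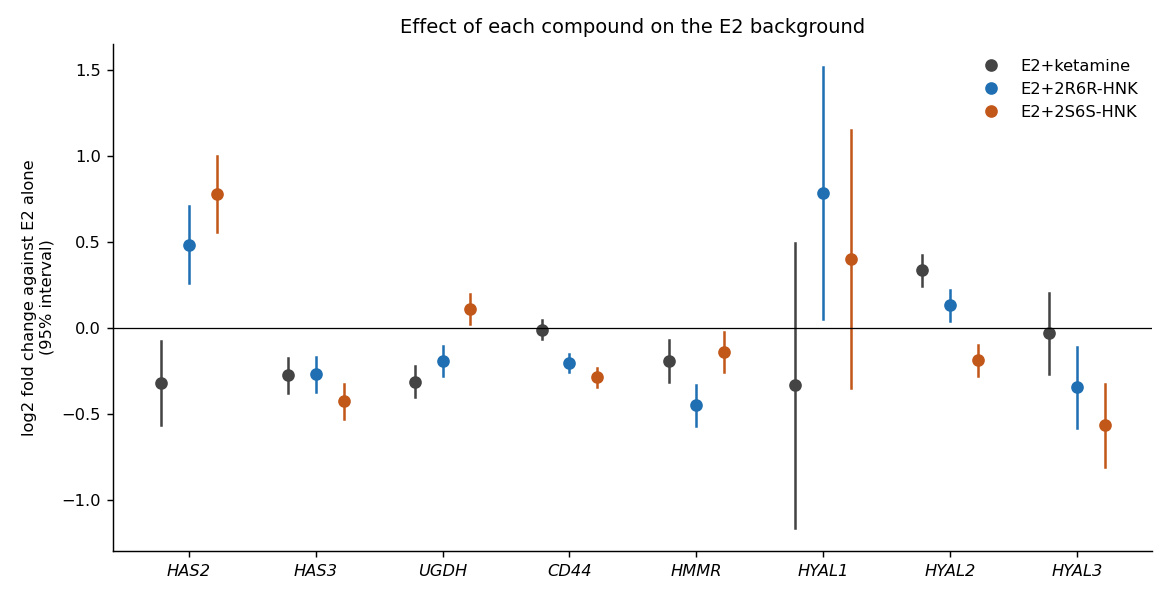
Log2 fold change against E2 alone of the 8 members that passed the filter, for E2+ketamine, E2+2R6R-HNK and E2+2S6S-HNK, with 95% intervals. HAS2 lies below 0 with ketamine and above 0 with both metabolites, and HAS3 lies below 0 with all 3 compounds.

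Ketamine and the 2 metabolites were then set against each other at the same dose and time, in 3 pairs without E2 and 3 with it. Without E2, the mirror-image metabolites differed in 1 of the 7 members, against 43.5% of all genes. HMMR was higher with 2R6R-HNK than with 2S6S-HNK (log2 difference 0.30 ± 0.06 SE, edgeR adjusted p = 3.5e-05). For HYAL2 the 95% interval of their difference was -0.09 to 0.09 on the log2 scale, for CD44 -0.07 to 0.04, for UGDH -0.03 to 0.15 and for HAS3 -0.20 to 0.00. The intervals of HYAL3 (-0.02 to 0.45) and HYAL1 (-1.15 to 0.36) were wider. HAS3 was called lower with 2R6R-HNK when 2R6R-HNK replicate 2 was left out (-0.16). Ketamine differed from 2R6R-HNK in 5 members (45.4% of all genes), with HYAL2 (-0.38 ± 0.04), HMMR (-0.48 ± 0.06) and HYAL3 (-0.33 ± 0.11) lower and CD44 and UGDH higher by at most 0.12. That count fell to 2 without 2R6R-HNK replicate 1, and to 3 without ketamine replicate 2 or without 2R6R-HNK replicate 2. Ketamine differed from 2S6S-HNK in 4 members (46.1% of all genes), with HYAL2 (-0.38 ± 0.04), HMMR (-0.18 ± 0.06) and HAS3 (-0.13 ± 0.05) lower and UGDH higher (0.18 ± 0.04), a count that was 2 without 2S6S-HNK replicate 1. In that pair HMMR lost its call without ketamine replicate 2 (-0.14) or 2S6S-HNK replicate 1 (-0.11), and HAS3 without ketamine replicate 1 (-0.09) or either 2S6S-HNK library (-0.13 and -0.14). After the correction for GC content, HMMR kept its call in all 3 pairs without E2, and HYAL2 in both pairs with ketamine (-0.24 and -0.21). CD44 was then called lower with ketamine than with either metabolite (-0.14 and -0.10). The differences of HYAL3 (-0.15) and UGDH (0.01) between ketamine and 2R6R-HNK, and of HAS3 (-0.04) between ketamine and 2S6S-HNK, were no longer called.

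With E2 present, the metabolites differed in 5 of the 7 members (54% of all genes). 2R6R-HNK left HYAL2 (0.32 ± 0.04), HAS3 (0.16 ± 0.05) and CD44 (0.08 ± 0.03) higher than 2S6S-HNK did, and HMMR (-0.31 ± 0.06) and UGDH (-0.30 ± 0.04) lower. The HAS3 call was lost without E2+2R6R-HNK replicate 2 (0.14) or E2+2S6S-HNK replicate 1 (0.14), and the CD44 call without E2+2R6R-HNK replicate 2 (0.05), under upper-quartile normalization (0.06) and in the compared groups alone (0.05). HAS2 was lower with 2R6R-HNK (-0.29 ± 0.10, edgeR adjusted p = 0.0147), but this call was lost without E2+2R6R-HNK replicate 2 (-0.25), E2+2S6S-HNK replicate 1 (-0.30) or E2+2S6S-HNK replicate 2 (-0.28), and the HAS2 difference was 0.06 after the correction for GC content. Ketamine with E2 left HAS2 lower than either metabolite did: the log2 difference was -0.81 ± 0.12 from 2R6R-HNK (edgeR adjusted p = 5.36e-08) and -1.10 ± 0.11 from 2S6S-HNK (edgeR adjusted p = 4.03e-12). Of the other members, 6 differed between ketamine and 2R6R-HNK (52% of all genes) and 5 between ketamine and 2S6S-HNK (66.8%). The largest of these were HYAL1 (-1.12 ± 0.38) in the first pair and HYAL3 (0.54 ± 0.12) and HYAL2 (0.52 ± 0.04) in the second. The first count was 3 without E2+ketamine replicate 2 or without E2+2R6R-HNK replicate 2, HYAL1 and HYAL3 being among the calls lost in both cases. After the correction HAS2 was still called lower with ketamine than with 2R6R-HNK (-0.71) and 2S6S-HNK (-0.65), and CD44 higher (0.37 and 0.64). HYAL1 kept its call between ketamine and 2R6R-HNK (-1.24), while HYAL2 (0.08), HYAL3 (0.13) and UGDH (0.00) lost theirs. Between ketamine and 2S6S-HNK the difference of HYAL2 shrank to 0.14 and was still called, that of HYAL3 (0.12) was not, HAS3 changed sign (-0.09, not called), and HYAL1 became called (-1.07). Between the metabolites CD44 and UGDH alone kept their calls, and the difference in HMMR became 0.03. For ketamine against 2S6S-HNK the HMMR difference was not called as fitted (-0.05) but was after the correction (0.39).

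Whether the effect of a compound differed with E2 was tested as an interaction, the effect over E2 alone minus the effect over vehicle. The interaction was called in 4 of the 7 members for ketamine (37.5% of all genes), 6 for 2R6R-HNK (56.6%) and 6 for 2S6S-HNK (65.1%). HMMR had the largest for ketamine (1.04 ± 0.08 SE, edgeR adjusted p = 6.66e-15): ketamine alone lowered it by 1.24, but by 0.19 in cells that had E2, where it already stood 0.87 below vehicle. HYAL3 had the largest for both metabolites, -1.12 ± 0.17 with 2R6R-HNK and -1.13 ± 0.17 with 2S6S-HNK, rising with each alone and falling with each when E2 was present. HYAL2 rose with 2S6S-HNK alone and fell with it in the presence of E2 (-0.79 ± 0.06). As a description, the interaction of HAS2 was 1.20 with ketamine, 1.94 with 2R6R-HNK and 1.51 with 2S6S-HNK, with HAS2 below vehicle after each metabolite alone and above E2 after each metabolite with E2. The corrected values of this HAS2 interaction were 0.92, 1.42 and 0.69. The vehicle and E2 libraries are shared by the 3 interactions. The count for ketamine was 2 without vehicle replicate 1, E2 replicate 2 or E2+ketamine replicate 1, HAS3 and HYAL3 losing their calls. The HAS3 interaction with ketamine (-0.18) was lost in 7 of the 8 fits that left out a library of these groups (-0.14 to -0.19), and that with 2R6R-HNK (-0.21) without 2R6R-HNK replicate 2 (-0.15). The HYAL3 interaction with ketamine was also lost without ketamine replicate 1 (-0.38). After the correction the interactions of HYAL3 held with all 3 compounds (-0.44, -0.72 and -0.55 for ketamine, 2R6R-HNK and 2S6S-HNK), and that of HMMR with ketamine did too (0.77), but HMMR turned negative with 2R6R-HNK (-0.20) and was not called with 2S6S-HNK (0.10). None of the HAS3 interactions was called after the correction (-0.10 with ketamine, -0.01 with 2R6R-HNK and -0.06 with 2S6S-HNK). HYAL2 was not called with 2R6R-HNK (-0.10), stayed called at a smaller size with 2S6S-HNK (-0.13) and became called with ketamine (0.22). The HYAL2 call with 2S6S-HNK was lost when the replicate block was added to the correction. CD44 kept its interaction with ketamine (0.31) and changed sign with 2R6R-HNK (-0.20) and 2S6S-HNK (-0.42), and UGDH kept its interaction with 2S6S-HNK (0.29) but not with 2R6R-HNK (0.03).

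The other genes of hyaluronan biology were taken as a list of 38, of which 27 were tested. Against vehicle, 8 of the 27 were higher and 12 lower with E2, 9 and 10 with ketamine, 9 and 12 with 2R6R-HNK, and 8 and 12 with 2S6S-HNK. With E2+ketamine 9 were higher and 11 lower, with E2+2R6R-HNK likewise 9 and 11, and with E2+2S6S-HNK 9 and 9. Of all genes tested, 29.9% were called higher and 32.7% lower with E2, 26.8% and 32.5% with ketamine, 31.7% and 34.9% with 2R6R-HNK, and 32.1% and 35.8% with 2S6S-HNK. With E2+ketamine these shares were 34.3% and 37.4%, with E2+2R6R-HNK 33.4% and 36.3%, and with E2+2S6S-HNK 24% and 35.7%, so that for a list of 27 genes the counts against vehicle are near the background. Against E2 alone, 8 of the 27 were higher and 12 lower with E2+ketamine (24.8% and 25.5% of all genes), 12 and 7 with E2+2R6R-HNK (25.1% and 25.4%), and 15 and 3 with E2+2S6S-HNK (27.3% and 27.8%). With the correction for GC content these counts were 5 and 7 with E2+ketamine (18.1% and 17.1% of all genes), 11 and 6 with E2+2R6R-HNK (23% and 27.5%), and 14 and 4 with E2+2S6S-HNK (22.7% and 29.2%). The list's median log2 fold change against vehicle, as fitted, lay between -0.107 and 0.208, and that of all genes between -0.0643 and -0.00268. LYVE1 and SPAM1 had no counts and HYAL4 at most 2.

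Within this list the enzymes that build UDP-N-acetylglucosamine and UDP-glucose, the other precursors of hyaluronan and also of protein glycosylation, were mostly lower. Of 6 such genes, 5 were called lower in each comparison with vehicle but that of E2+2R6R-HNK, where 4 were, against the 32.5% to 37.4% of all genes called lower. With the correction for GC content 4 of the 6 were lower with E2 (22.7% of all genes), ketamine (31%), 2R6R-HNK (25.3%), 2S6S-HNK (31.5%) and E2+2S6S-HNK (34.1%), 5 with E2+ketamine (28.3%) and 3 with E2+2R6R-HNK (33.5%). With E2+2S6S-HNK the count was 3 under upper-quartile normalization and 4 in DESeq2 and in the compared groups alone. It was also 4 with no filter and with at least 10 counts in every library. With 2S6S-HNK the count was 4 under upper-quartile normalization. The median of the 6 against vehicle lay between -0.901 and -0.28 as fitted and between -0.408 and -0.128 after the correction. Set against E2 alone, 5 were lower and 1 higher with ketamine (25.5% and 24.8% of all genes). With 2R6R-HNK 3 were lower and 3 higher (25.4% and 25.1%), and with 2S6S-HNK 0 and 5 (27.8% and 27.3%). After the correction these counts were 2 and 0 with ketamine (17.1% and 18.1%), 2 and 3 with 2R6R-HNK (27.5% and 23%), and 1 and 4 with 2S6S-HNK (29.2% and 22.7%). UAP1, which forms UDP-N-acetylglucosamine in its last step, averaged 221 CPM with vehicle and fell against vehicle by 0.57 on the log2 scale with E2+2S6S-HNK to 1.37 with E2+ketamine. UGP2, which forms UDP-glucose, the substrate of UGDH, fell by 0.45 with E2+2S6S-HNK to 1.05 with E2+ketamine. Both genes stayed lower and called in all 7 comparisons after the correction for GC content, UAP1 at -0.66 to -0.28 and UGP2 at -0.58 to -0.22. PGM3, the phosphomutase of the same pathway, fell by 0.22 to 1.22, but its corrected value was not called with 2S6S-HNK (-0.12), E2+2R6R-HNK (0.02) or E2+2S6S-HNK (0.09). The smallest fall of PGM3, with E2+2S6S-HNK, was also lost without vehicle replicate 2 (-0.14) or E2+2S6S-HNK replicate 1 (-0.15) and under upper-quartile normalization (-0.11). GNPNAT1, which acetylates glucosamine phosphate, fell by 0.34 to 0.76. After the correction its values with E2 (0.00), 2R6R-HNK (-0.03) and E2+2R6R-HNK (-0.07) were not called, and those of GNPNAT1 in the other 4 comparisons lay between -0.15 and -0.09. GFPT1, the enzyme that commits sugar to this pathway, was called lower in 5 comparisons, by 0.75 with E2+ketamine at most, and higher with E2+2S6S-HNK (0.15). After the correction GFPT1 was called higher with ketamine (0.23), 2R6R-HNK (0.12), 2S6S-HNK (0.43), E2+2R6R-HNK (0.56) and E2+2S6S-HNK (0.46), so that its direction depends on it. GFPT2 was called higher with ketamine (0.21) and lower with E2+2S6S-HNK (-0.18). The rise of GFPT2 was lost after the correction (0.00) and without vehicle replicate 1 (0.20) or ketamine replicate 2 (0.19). Its fall was lost in DESeq2 (-0.16), under upper-quartile normalization, with either other filter and in the compared groups alone. It was also lost without either vehicle library (-0.19 and -0.17) or E2+2S6S-HNK replicate 2 (-0.14). After the correction, however, GFPT2 was called lower in the 6 comparisons other than ketamine, at -0.39 to -0.19.

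**Figure D5:**
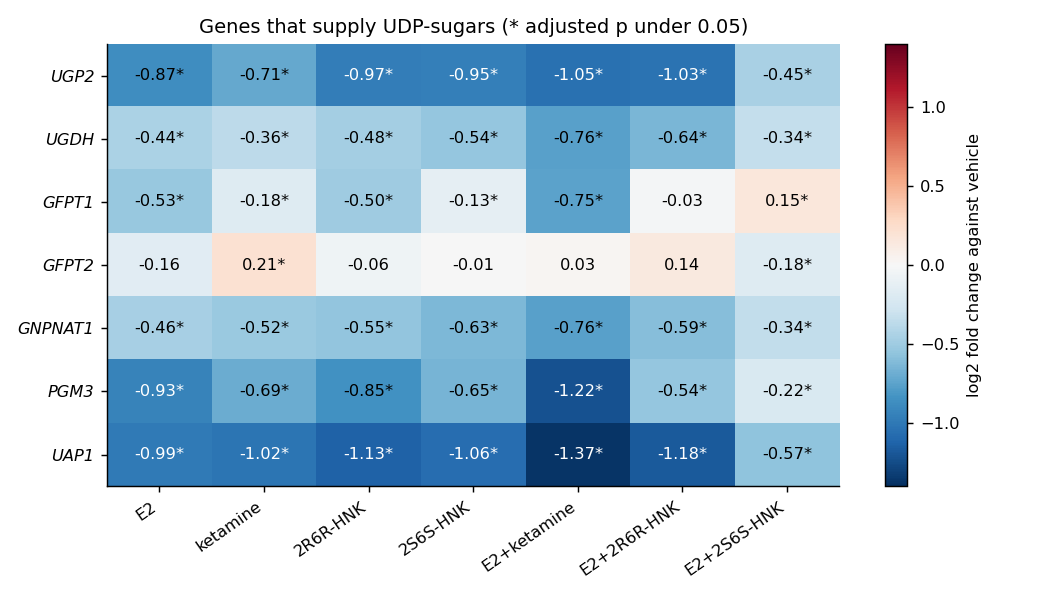
Log2 fold change against vehicle, as fitted, of UGDH and the 6 listed genes that supply UDP-sugars, with an asterisk where the adjusted p was under 0.05. UGP2, UGDH, GNPNAT1, PGM3 and UAP1 are lower in all 7 treatments, with the smallest falls under E2+2S6S-HNK.

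Among the turnover genes, TMEM2, a cell-surface protein that has been described as a hyaluronidase, fell in all 7 comparisons, by 0.37 with E2+2S6S-HNK to 1.01 with E2+ketamine, and was called lower in all 7 after the correction too (-0.45 to -0.13 for TMEM2). CEMIP, another listed turnover gene, averaged 2.19 CPM with vehicle and is given after the correction only. It was called higher with E2 (0.636), ketamine (0.691), 2S6S-HNK (0.672), E2+2R6R-HNK (0.711) and E2+2S6S-HNK (0.705). The CEMIP rise with 2R6R-HNK was near the threshold (0.361, edgeR adjusted p = 0.0495), and its value with E2+ketamine was not called (-0.204). HEXA, a subunit of the lysosomal hexosaminidases, rose in all 7, by 0.19 with E2 to 0.54 with E2+2R6R-HNK, and so did LAYN (layilin), a membrane receptor for hyaluronan, by 0.14 with E2+2S6S-HNK to 0.48 with E2+ketamine. TLR4, an innate immune receptor that responds to hyaluronan fragments, was low, at 1.02 to 2.97 CPM, and fell by 1.20 with 2S6S-HNK and 1.19 with E2+2R6R-HNK. The corrected values of TLR4 for those 2 groups were -0.68 and -0.64, and both were called. TLR4 was also called lower with E2 (-0.52), 2R6R-HNK (-0.68), E2+ketamine (-0.67) and E2+2S6S-HNK (-0.59), and none of these 4 calls held after the correction (-0.04, -0.07, 0.06 and -0.30). Each was also lost when 1 library was left out, at values of -0.56 to -0.37: that with E2 without vehicle replicate 1 or either E2 library, that with 2R6R-HNK without its replicate 2, that with E2+ketamine without its replicate 1, and that with E2+2S6S-HNK without vehicle replicate 1 or its own replicate 1.

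The proteins listed as binding or crosslinking hyaluronan moved in both directions. VCAN (versican), at 25.7 CPM on average, fell in all 7 comparisons, by 0.29 with ketamine to 0.99 with E2+2R6R-HNK, and VCAN was still called lower after the correction with 2R6R-HNK (-0.18), 2S6S-HNK (-0.56), E2+2R6R-HNK (-0.57) and E2+2S6S-HNK (-0.56), but not with E2 (-0.06), ketamine (-0.01) or E2+ketamine (-0.11). PTX3 (pentraxin 3) was called lower in 5 comparisons, by 0.36 with E2 to 0.70 with E2+ketamine, but not with ketamine (-0.10) or E2+2S6S-HNK (0.12). The PTX3 call with 2S6S-HNK was lost after the correction (-0.22) and that with E2 without E2 replicate 2 (-0.27). ACAN (aggrecan) rose in all 7 comparisons, by 0.81 with E2, 0.87 with ketamine and 0.99 with 2R6R-HNK, and by 1.81 with 2S6S-HNK, 1.05 with E2+ketamine, 1.93 with E2+2R6R-HNK and 1.55 with E2+2S6S-HNK. Its 16 libraries ran from 2.87 to 12.6 CPM. ITIH3, a heavy chain that becomes attached to hyaluronan, rose by 0.59 with E2 to 1.78 with E2+2R6R-HNK, and its relative ITIH5 by 1.04 with ketamine, 1.44 with 2S6S-HNK, 1.55 with E2+2R6R-HNK and 1.36 with E2+2S6S-HNK. ACAN was called higher in all 7 comparisons after the correction for GC content and ITIH3 in 6, its corrected value with E2 being 0.28, and the call of ITIH3 with E2 was also lost without vehicle replicate 1 (0.43). ITIH5 kept its 4 calls and was also called with E2 (0.70) and E2+ketamine (0.65), which it had not been as fitted. HAPLN4 and ITIH4, at 10 to 47 and 12 to 43 counts per library, passed a 2-fold change with 2R6R-HNK (1.17) and E2+2R6R-HNK (1.16), and HAPLN4 also with E2+ketamine (1.002). None of these 3 calls held after the correction for GC content. That of HAPLN4 with 2R6R-HNK was lost without vehicle replicate 1 (0.77) or 2R6R-HNK replicate 1 (0.97) and its value was 1.72 without vehicle replicate 2, and that of HAPLN4 with E2+ketamine was lost in 15 of the 16 fits that left out a library (0.60 to 1.55 over all 16). That of ITIH4 was lost without either vehicle library (1.14 and 1.18) or E2+2R6R-HNK replicate 2 (0.57). C1QBP, a largely mitochondrial protein that binds hyaluronan, moved both ways, from 0.12 with E2 and 2R6R-HNK to -0.48 with E2+2S6S-HNK. Its rise with E2 was lost without vehicle replicate 2 (0.09 for C1QBP), and that with 2R6R-HNK without vehicle replicate 2 (0.09) or 2R6R-HNK replicate 1 (0.09).

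HMMR is also a gene of dividing cells, so a list of 16 mitotic genes was set beside it; the count of mitotic transcripts cannot tell fewer dividing cells from less RNA per cell. All 16 were tested. Against vehicle 13 were lower and 2 higher with E2, 15 and 0 with ketamine, and 15 and 1 with E2+2S6S-HNK, while 13 were lower and 3 higher with each of the other 4 treatments. The shares of all genes called lower were 32.7% with E2, 32.5% with ketamine, 34.9% with 2R6R-HNK, 35.8% with 2S6S-HNK, 37.4% with E2+ketamine, 36.3% with E2+2R6R-HNK and 35.7% with E2+2S6S-HNK. The median log2 fold change of the list was -0.41 with E2, -0.54 with ketamine, -0.52 with 2R6R-HNK, -0.40 with 2S6S-HNK, -0.62 with E2+ketamine, -0.52 with E2+2R6R-HNK and -0.30 with E2+2S6S-HNK. As fitted, HMMR fell more than this median in every treatment. With E2, the mitotic motor KIF11 (-0.92), TOP2A (-0.84) and CENPF (-0.75) fell about as far as HMMR, whereas PLK1 and AURKB rose by 0.18 and 0.12. After the correction PLK1 (-0.15) and AURKB (-0.14) were called lower with E2, as were KIF11 (-0.49), TOP2A (-0.34) and CENPF (-0.30), and the rise of AURKB was also lost without vehicle replicate 1 (0.08). Set against E2 alone, where HMMR fell with all 3 compounds, 10 of the 16 were lower and 4 higher with ketamine (25.5% and 24.8% of all genes), but 4 were lower and 10 higher with 2R6R-HNK (25.4% and 25.1%) and likewise with 2S6S-HNK (27.8% and 27.3%). With the correction 5 were lower and 7 higher with ketamine (17.1% and 18.1% of all genes). These counts became 5 and 9 with 2R6R-HNK (27.5% and 23%), and 5 and 8 with 2S6S-HNK (29.2% and 22.7%). After the correction for GC content the list's medians against vehicle were -0.34 to -0.11, with 9 to 16 genes lower, where 22.7% to 34.1% of all genes were. From 0 of the 16, with ketamine, to 4, with 2S6S-HNK, were then called higher, and 2 were with E2. HMMR then stood above the median of the list with 2R6R-HNK (-0.15 against -0.24) and close to it with E2 (-0.32 against -0.31), and below it with the other 5 treatments.

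Of the 10374 genes averaging at least 5 CPM, those whose log2 CPM followed HAS2 most closely over the 16 libraries were CALD1 (Pearson r = 0.954), LINC00641 (0.949), ENAH (0.942), APOOL (0.939) and TXNIP (0.935). Without the 2 libraries farthest from the median of HAS2, both vehicle, these were 0.895 to 0.922. For HMMR the closest were NUP88 (0.983), USP16 (0.979), RAN (0.977), MRPL18 (0.975) and ANXA2 (0.975), and 0.89 to 0.935 without the vehicle libraries. For CD44 they were NRK (0.929), NEDD4L, CCND1 and MAP1B (0.919 each) and FAM111B (0.914), and 0.729 to 0.835 without vehicle. Among the members themselves, HYAL2 and UGDH ran in opposite directions (r = -0.927, and -0.874 without the 2 libraries farthest from the median of HYAL2), and HAS2 and HYAL3 likewise (r = -0.811, and -0.691). CD44 and HMMR had an r of 0.789, which rested on the vehicle libraries and was 0.177 without them. These values describe 16 libraries in pairs that share a group, and the genes differ in GC content, with which the libraries also differ.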

How the data were processed

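RNA-seq libraries of HMC3 cells were prepared by the authors from amplified cDNA (NuGEN Ovation v2) and sequenced as paired reads. The submitters' processing notes name TopHat2 2.0.14, Bowtie2 2.2.6 and featureCounts 1.4.6 on hg19. The study's methods name other versions of TopHat and Bowtie for these data. The authors deposited raw counts per gene without normalization, and whether the counting used the strand is not given in the sources used here. The 16 libraries, with 55300614 to 81646165 counts, fell into 8 groups of 2 by their labels, and replicate spread had a common coefficient of variation of 2.81%.

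The members and gene lists were chosen with earlier results of these data known. They were named by these rules: all 10 members, and of 38 other hyaluronan genes those past a 2-fold change against vehicle in any treatment plus the 6 of highest mean CPM. GNPNAT1, GFPT2, VCAN, PTX3, CEMIP and the single mitotic genes were named after their values were seen. Counts were analysed in R 4.3.3 with edgeR 4.0.16 (filterByExpr, which kept 16004 of 25370 genes; TMM; 1 quasi-likelihood fit with 8 group means and 8 residual degrees of freedom). P-values were adjusted by Benjamini-Hochberg over all genes tested within each of 19 comparisons: 7 against vehicle, 3 against E2, 6 between compounds and 3 interactions. A gene was called at an adjusted p under 0.05. SE and 95% intervals come from the same fit, and levels in CPM use the TMM factors.

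Alternatives were DESeq2 1.42.0, the compared groups only, upper-quartile normalization, no filter, at least 10 counts in every library, the replicate number as a block, a GC and length correction with and without that block, and each library left out in turn. The correction is a loess fit (span 0.5) per library on exon GC content and length, used as an offset, and real changes that track GC content are removed along with library bias. Positions, exon lengths and GC content came from GENCODE on GRCh37, and 96% of tested genes had them. Promoter sequences came from RefSeq on GRCh38.p14, which matched 9 of the 10 members. Libraries of the same replicate number deviated with correlations of -0.0258 to 0.0451, so the numbers were not taken to pair them. The scripts were tested on simulated data.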

Additional observations from a re-analysis of the deposited data

Results flagged for a closer look

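The effect of a compound differed between cells with and without E2, by the interaction term in edgeR, in 16 cases among the 7 members tested. All are on the log2 scale, as the effect over E2 alone minus the effect over vehicle, and all share the 2 vehicle and the 2 E2 libraries. Groups of 2 libraries allow no test for a single library that lies apart, and no column of the tables was without a sample.

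HMMR had interactions of 1.045 with ketamine, 0.3094 with 2R6R-HNK and 0.9199 with 2S6S-HNK, in each case a smaller fall, as fitted, when E2 was present. After the correction for GC content the HMMR interaction turned negative with 2R6R-HNK and was not called with 2S6S-HNK. CD44 had 0.3491 with ketamine, 0.2272 with 2R6R-HNK and 0.1279 with 2S6S-HNK, its falls over vehicle being larger, as fitted, than those over E2. After the correction the CD44 interactions with both metabolites changed sign. UGDH had 0.2882 with 2R6R-HNK and 0.6481 with 2S6S-HNK, falling with both compounds alone and, as fitted, rising over E2 with 2S6S-HNK. After the correction UGDH kept its interaction with 2S6S-HNK but not with 2R6R-HNK, and its rise over E2 was not called. HAS3, which differed from vehicle by at most 0.25 in size as fitted, had -0.1836 with ketamine, -0.213 with 2R6R-HNK and -0.4673 with 2S6S-HNK. No HAS3 interaction was called after the correction for GC content.

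HYAL2 had interactions of -0.4745 with 2R6R-HNK and -0.7902 with 2S6S-HNK, and HYAL3 of -0.4752 with ketamine, -1.119 with 2R6R-HNK and -1.128 with 2S6S-HNK. After the correction those of HYAL3 were still called, while that of HYAL2 with 2R6R-HNK was not. The exons of both hyaluronidases are GC-rich, and the part of GC content in these values was not tested beyond the correction described with the processing.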

How the results depend on the processing

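The directions of the 19 comparisons held under DESeq2, the compared groups alone, both filters, upper-quartile normalization, the replicate block and each library left out wherever a value was called. Upper-quartile normalization moved the median of all genes for E2+2S6S-HNK against vehicle from -0.0643 to 0.0402. The replicate block used numbers that did not pair the libraries, and it changed no call of a member (HMMR, E2+ketamine against E2, was -0.194 with the block too). The GC and length correction, alone and with the block, changed most. Counts of members called became 3 for 2R6R-HNK and for 2S6S-HNK against vehicle, 3 for ketamine against 2R6R-HNK, 3 for E2+ketamine against E2+2R6R-HNK, 2 for E2+2R6R-HNK against E2+2S6S-HNK and 3 for the interaction with 2R6R-HNK, and with the block also 3 for that with 2S6S-HNK. Over all 16004 genes tested, calls against vehicle also fell with the correction alone. They went from 10656 to 7294 with 2R6R-HNK and from 10862 to 9096 with 2S6S-HNK. The cause of these changes was not tested. With 1 library left out the counts ran from 2 to 5 for ketamine against 2R6R-HNK, 2 to 4 for ketamine against 2S6S-HNK, 1 to 2 for 2R6R-HNK against 2S6S-HNK, 3 to 6 for E2+ketamine against E2+2R6R-HNK and 2 to 4 for the interaction with ketamine, a lone library being assumed to vary like the other groups.

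Values that changed sign under the correction and were called before or after it are listed here, as are those of HAS2. The list covers the members, and single genes in the comparisons described above, apart from CEMIP, which is given above after the correction only. Genes not described above changed sign too, among them GUSB with E2 (0.13 to -0.155) and 2R6R-HNK (0.13 to -0.215). Corrected values are given without and then with the block where these differ. Against vehicle, HAS3 was -0.00216 and -0.00215 with E2 and -0.283 with 2S6S-HNK, CD44 was 0.0592 with E2, 0.0324 with 2R6R-HNK and 0.262 with E2+ketamine, HYAL2 was -0.15 with ketamine and -0.0514 and -0.051 with E2+2S6S-HNK, HAS2 was 0.00678 and 0.00626 and HYAL3 -0.112 and -0.111 with E2+2R6R-HNK. GFPT1 was 0.234 with ketamine, 0.121 with 2R6R-HNK, 0.426 with 2S6S-HNK, 0.00106 and 0.00107 with E2+ketamine and 0.564 with E2+2R6R-HNK, GNPNAT1 was 0.000443 and 0.000259, PLK1 -0.148 and AURKB -0.142 with E2, GFPT2 was -0.00178 and -0.00182 with ketamine, -0.339 with E2+ketamine and -0.186 with E2+2R6R-HNK, TLR4 was 0.0596 and 0.0568 with E2+ketamine, and PGM3 was 0.0246 and 0.026 with E2+2R6R-HNK and 0.0873 and 0.0884 with E2+2S6S-HNK. Against E2, CD44 was 0.203 with ketamine, HYAL2 -0.00996 and -0.01 with 2R6R-HNK and UGDH -0.0111 with 2S6S-HNK. Between compounds, CD44 was -0.142 for ketamine against 2R6R-HNK and -0.0955 against 2S6S-HNK. With E2, UGDH was 0.000995 for ketamine against 2R6R-HNK, HAS3 -0.086 and -0.0863 and HMMR 0.386 for ketamine against 2S6S-HNK, and HAS2 was 0.0584 and 0.0586, HAS3 -0.0342 and -0.0345 and HMMR 0.0343 and 0.0342 for 2R6R-HNK against 2S6S-HNK. The interaction of CD44 was -0.2 with 2R6R-HNK and -0.42 with 2S6S-HNK, and that of HMMR -0.2 and -0.201 with 2R6R-HNK. Depth limits HYAL1, at 17 to 60 counts, and HAS1 and TNFAIP6, which could not be tested.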
